A study of Mus musculus with 12 samples.

Results

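The genes described here are 10 components of the circadian clock, namely Arntl (also written Bmal1), Clock, Per1, Per2, Per3, Cry1, Cry2, Nr1d1, Nr1d2 and Dbp. They were taken by symbol from an expression table of 55291 genes, of which 19633 carried enough signal to be tested. All 10 were found, all 10 passed that filter, and each had reads in all 12 mice. The cells were alveolar macrophages sorted by flow cytometry from lungs of female C57BL6/NJ mice aged 8 to 11 weeks and kept on a cycle with 12 hours of light. The ozone group of 6 mice breathed 0.8 ppm ozone for 4 hours a day on 4 days in a row, and the filtered-air group of 6 mice went through the same schedule without ozone. Lungs were taken 3 days after the last exposure, and each mouse gave 1 polyA RNA library. Neither group carried a transgene or an induced deletion according to the labels. The hour of the day at which exposure and collection took place is not given in the sources used here.

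The mammalian clock is a transcriptional feedback loop. Arntl and Clock encode the activators, which bind E-box sequences as a dimer and switch on the Per, Cry, Nr1d and Dbp genes. The PER and CRY proteins then inhibit the activators, the REV-ERB receptors encoded by Nr1d1 and Nr1d2 repress Arntl in a second loop, and DBP acts through D-box sequences. Macrophages run this loop autonomously, and it gates part of their cytokine response. Because activators and targets peak at different phases, the level of a clock gene in tissue collected at a single time reflects the phase as well as the amplitude. The design asks whether clock genes differed between the ozone and the filtered-air mice, and the mouse-to-mouse spread shows whether activators and targets moved in opposite directions.

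The stretches upstream of Per3, Nr1d2, Nr1d1 and Cry2 are shown for these reasons. Per3 and Nr1d2 formed the pair that passed the test of correlation over mice, Nr1d1 is the paralog of Nr1d2, and Cry2 passed the ozone test. Each is the 250 bases before the transcription start, written 5′ to 3′ on the strand of the gene, from RefSeq on GRCm38.p6. All 4 lie on the minus strand. Capitals mark matches, on either strand, to the E-box CACGTG, the related sequence CACGTT (which reads AACGTG on the other strand) or the D-box TTANGTAA. The search also covered TAGGTCA and TGGGTCA, elements bound by the REV-ERB and ROR receptors, and the cyclic AMP response element TGACGTCA. No motif in this set contains another.
Per3: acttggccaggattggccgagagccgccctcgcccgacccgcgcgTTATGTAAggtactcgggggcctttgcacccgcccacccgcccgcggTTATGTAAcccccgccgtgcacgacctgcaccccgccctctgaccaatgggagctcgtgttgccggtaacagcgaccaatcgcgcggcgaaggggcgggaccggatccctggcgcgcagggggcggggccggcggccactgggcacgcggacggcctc
Nr1d2: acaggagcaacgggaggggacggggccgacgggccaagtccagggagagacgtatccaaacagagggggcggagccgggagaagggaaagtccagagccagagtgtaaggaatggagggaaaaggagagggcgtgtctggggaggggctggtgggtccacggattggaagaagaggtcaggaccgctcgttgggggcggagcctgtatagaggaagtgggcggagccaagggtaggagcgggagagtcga
Nr1d1: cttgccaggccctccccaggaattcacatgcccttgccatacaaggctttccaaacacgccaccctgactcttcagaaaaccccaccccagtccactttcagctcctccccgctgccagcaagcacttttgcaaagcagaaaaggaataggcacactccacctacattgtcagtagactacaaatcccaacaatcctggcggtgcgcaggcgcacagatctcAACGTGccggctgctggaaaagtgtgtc
Cry2: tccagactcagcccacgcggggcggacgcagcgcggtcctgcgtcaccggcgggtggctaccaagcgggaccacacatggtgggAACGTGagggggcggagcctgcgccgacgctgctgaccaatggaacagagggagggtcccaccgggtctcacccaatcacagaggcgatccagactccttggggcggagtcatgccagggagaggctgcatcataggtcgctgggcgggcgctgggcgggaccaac

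The Per3 window (chr4:151044666-151044915) held 2 D-box matches, whose first bases lie at -205 and -158 from the start. A D-box of these letters occurred in 2.06% of the 32851 windows of this length. The Cry2 window (chr2:92434070-92434319) held CACGTT at -166 and the Nr1d1 window (chr11:98775378-98775627) held it at -28, against 3.85% of all windows. The Nr1d2 window (chr14:18239107-18239356) held none of the motifs searched, nor did the windows of Arntl, Clock and Dbp. Cry1 had the E-box at -60 and CACGTT at -79, and Per1 had the E-box at -166 in its first window, against 6.02% of all windows with an E-box. Of the 9 genes with a window in the table (all but Per2), which have 13 windows between them, 5 had a match to any motif. The share of all genes with such a match was not computed, so this count has no comparison. The 3 other motifs occurred in 2.23%, 3.24% and 1.55% of all windows in the order named above, and in no window of these genes. A match describes these letters and does not show that a factor was bound.

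Values below are the deposited log2-scale expression, on which the filtered-air mean of every gene is 0, so a value states a distance from that mean and not an abundance. The scale is compressed for genes with few reads. Relative sequencing depth, read from the step that 1 read makes at the bottom of the scale, ran from 0.871 to 1.21 in ozone mice and from 0.901 to 1.17 in filtered-air mice. RNA integrity numbers were 9.2 to 9.7 after ozone and 8.9 to 9.7 after filtered air. All 9 alveolar macrophage markers examined had reads in every mouse, and of these Car4 rose by 0.32 (adjusted p = 0.046) and Krt79 fell by 0.35 (adjusted p = 0.0177). The eosinophil genes Epx and Prg2 did not pass the filter, and none of the tested markers of neutrophils, monocytes, T cells, B cells, alveolar epithelium, airway epithelium, endothelium or fibroblasts passed the test. The comparison of the groups used limma with the flow-sort batch as a covariate and Benjamini-Hochberg adjustment over all 19633 genes, and a gene is said to rise or fall where the adjusted p was under 0.05.

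Of the 10 clock genes, Cry2 fell after ozone and none rose. In all, 1 of 10 passed the test in either direction, against 4.25% of all genes tested, and 1 of 10 was lower, against 1.84%. At an unadjusted p under 0.05, 4 of 10 were lower (Per1, Per2, Cry2 and Dbp), against 8.29% of all genes. The number of clock genes at an unadjusted p under 0.05 was 1 after quantile normalization, 1 in flow-sort batch 1 alone, 2 without filtered-air mouse 2, and 2 to 5 over the fits with 1 mouse left out. The difference between ozone and filtered air was negative in 8 of 10, Cry1 among them at -0.0008, and in 10210 of all 19633 genes tested. Its median was -0.16 on the log2 scale in the clock genes, where the median over all genes tested was -0.0033. In no clock gene did the 2 groups of mice separate without overlap, which 3.53% of all genes did. Because the RNA came from a sorted population, a smaller share of one kind of cell and less RNA per cell cannot be told apart.

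**Figure D1:**
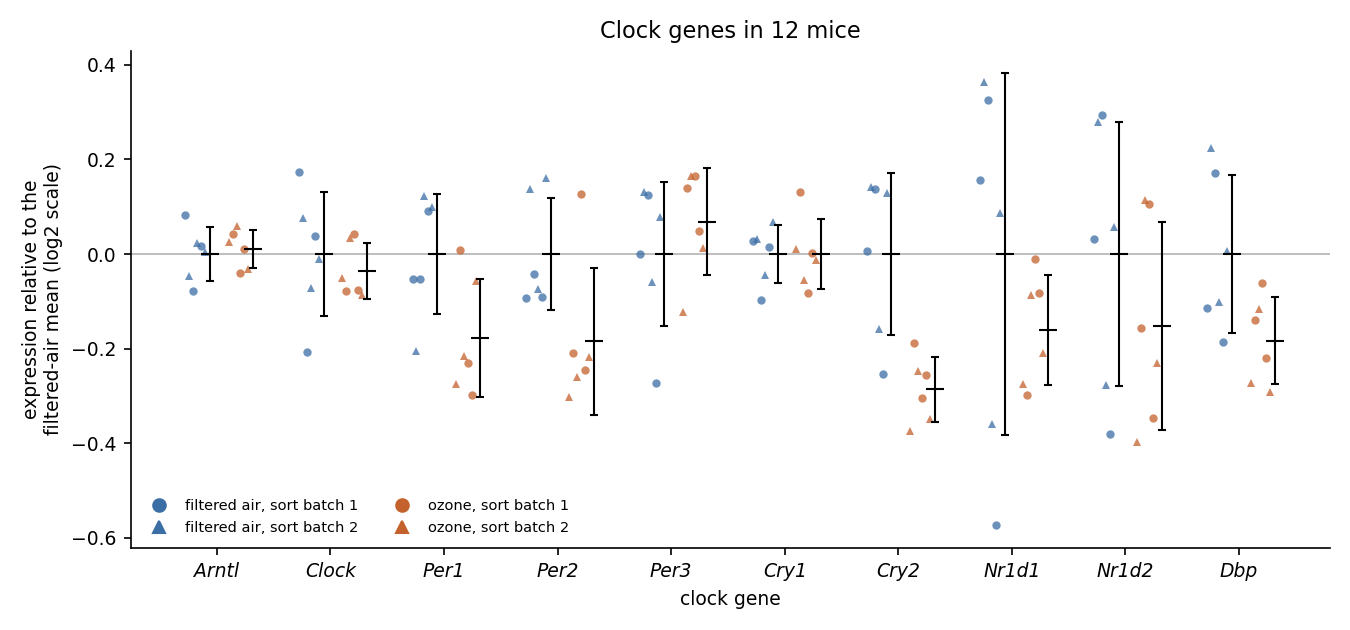
Expression of the 10 clock genes relative to the filtered-air mean (vertical axis, log2 scale) in 6 filtered-air and 6 ozone mice. Each point is a mouse, circles and triangles are the flow-sort batches, and bars show the mean and SD of the 6 mice. Ozone mice lie at -0.37 to -0.19 for Cry2, while the filtered-air mice spread from -0.57 to 0.36 for Nr1d1.

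The activators did not pass the test. Arntl, the obligate dimer partner of CLOCK, ran from -0.08 to 0.08 with a median of 0.01 in filtered-air mice, and from -0.04 to 0.06 with a median of 0.02 in ozone mice. The ozone values lay inside the filtered-air range. Its difference was 0.01 ± 0.04 (SE, adjusted p = 0.931), with a 95% interval of -0.07 to 0.09, the narrowest of the 10 genes. Clock ran from -0.21 to 0.17 (median 0.01) in filtered air and from -0.09 to 0.04 (median -0.06) in ozone. Its ozone mice also lay within the filtered-air range, and the difference was -0.04 ± 0.06 (SE, adjusted p = 0.825). The spread of Arntl around the mean of each group and batch was small, and 87.3% of all genes tested had as large a spread or larger.

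Among the Period genes, which encode the PER inhibitors of the loop, Per1 and Per2 each had a difference of -0.18 and Per3 had 0.07, and none of the 3 passed the test. Per1 ran from -0.20 to 0.12 (median 0.02) in filtered-air mice and from -0.30 to 0.01 (median -0.22) in ozone mice. Ozone mice 2 and 6, at 0.01 and -0.06, and filtered-air mouse 2, at -0.20, made the groups overlap. The difference was -0.18 ± 0.07 (SE, adjusted p = 0.176 by limma), with -0.17 in flow-sort batch 1 and -0.19 in batch 2.

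Per2 ran from -0.09 to 0.16 (median -0.06) in filtered-air mice and from -0.30 to 0.13 (median -0.23) in ozone mice. Ozone mice 1, 2, 3, 5 and 6 lay between -0.30 and -0.21, below every filtered-air mouse, and ozone mouse 4 lay at 0.13. The difference was -0.18 ± 0.07 (SE, adjusted p = 0.20 by limma), and it was -0.03 in batch 1, which holds ozone mouse 4, and -0.34 in batch 2. Without ozone mouse 4, the mouse that lies against the difference, it was -0.25, given as a description. That was the 1 of 12 fits with a mouse left out in which the adjusted p was under 0.05, and in the others it reached 0.352. Per2 had the only batch interaction with an unadjusted p under 0.05 among the 10 genes (adjusted p = 0.9998 by limma), and no gene in the table passed the interaction test after adjustment, with 510 at an unadjusted p under 0.05.

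Per3 encodes a paralog that is not needed for rhythm itself. Its filtered-air mice ran from -0.27 to 0.13 (median 0.04) and its ozone mice from -0.12 to 0.17 (median 0.09). The groups overlapped, and the difference was 0.07 ± 0.07 (SE, adjusted p = 0.712), with a 95% interval of -0.08 to 0.22. It was 0.17 in batch 1 and -0.03 in batch 2.

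Of the 2 cryptochromes, which encode the CRY partners of the PER proteins, Cry2 fell and Cry1 did not pass the test. Cry2 ran from -0.25 to 0.14 (median 0.07) in filtered-air mice and from -0.37 to -0.19 (median -0.28) in ozone mice. Filtered-air mice 1, 2, 3 and 6 lay between 0.01 and 0.14, above every ozone mouse, and filtered-air mice 4 and 5, at -0.16 and -0.25, lay near or inside the ozone range. Cry2 fell by 0.29 ± 0.07 on the log2 scale (SE, adjusted p = 0.0303 by limma), with a 95% interval of -0.43 to -0.14. The difference was -0.21 in batch 1 and -0.36 in batch 2. It stayed between -0.34 and -0.26 with each mouse left out in turn, but the adjusted p rose above 0.05 in 9 of those 12 fits, up to 0.0725, and stayed below it without filtered-air mouse 4, filtered-air mouse 5 or ozone mouse 2. The call also ended under quantile normalization (-0.24, adjusted p = 0.289), under a variance trend (adjusted p = 0.0514), in batch 1 alone (adjusted p = 0.451) and in batch 2 alone (adjusted p = 0.242). With filtered-air mice 4 and 5 left out together the difference was -0.39. Those mice were picked after their low values were seen, which by itself enlarges the difference, so that value has no test.

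Cry1 lay near 0 in both groups. Its filtered-air mice ran from -0.10 to 0.07 (median 0.02) and its ozone mice from -0.08 to 0.13 (median -0.01). The groups lay over each other, and the difference was -0.0008 ± 0.04 (SE, adjusted p = 0.997) with a 95% interval of -0.09 to 0.09. That interval does not reach the value of Cry2. The difference between the 2 genes was itself not tested.

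Nr1d1 and Nr1d2, which encode REV-ERB alpha and REV-ERB beta, the repressors of Arntl, varied most between mice. Nr1d1 ran from -0.57 to 0.36 (median 0.12) in filtered-air mice and from -0.30 to -0.01 (median -0.15) in ozone mice. Filtered-air mice 1, 2, 3 and 6 lay above every ozone mouse, at 0.09 to 0.36, and filtered-air mice 4 and 5 lay below every ozone mouse, at -0.36 and -0.57. The difference was -0.16 ± 0.14 (SE, adjusted p = 0.648), with a 95% interval of -0.46 to 0.14. Without filtered-air mice 4 and 5, which were picked for their low values, it was -0.39, given as a description with no test.

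The SD of Nr1d1 was 0.38 in filtered air and 0.12 after ozone, and 1.03% of all genes tested had as large a ratio of these SDs or larger. Nr1d2 ran from -0.38 to 0.29 (median 0.04) in filtered-air mice and from -0.40 to 0.12 (median -0.19) in ozone mice. The groups overlapped, and the difference was -0.15 ± 0.12 (SE, adjusted p = 0.62), with a 95% interval of -0.42 to 0.12. The spread of Nr1d1 within group and batch was reached or passed by 0.642% of all genes and that of Nr1d2 by 0.983%. The spread on this scale also depends on how many reads a gene has.

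Dbp, a PAR-domain leucine zipper factor driven directly by CLOCK and ARNTL, ran from -0.19 to 0.22 (median -0.05) in filtered-air mice and from -0.29 to -0.06 (median -0.18) in ozone mice. Filtered-air mice 2, 3 and 6 lay above every ozone mouse, and filtered-air mice 1, 4 and 5 lay within the ozone range. The difference was -0.18 ± 0.07 (SE, adjusted p = 0.191 by limma), with -0.10 in batch 1 and -0.27 in batch 2. In 7 of the 10 clock genes the sign of the difference was the same in both batches, as in 63.7% of all genes tested.

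Filtered-air mice 4 and 5 were the 2 lowest of their group for Per3, Cry2, Nr1d1 and Nr1d2, and mouse 5 was also the lowest for Dbp. The mean over the 10 clock genes was -0.10 and -0.16 in these mice and 0.02 to 0.11 in the other filtered-air mice. Filtered-air mouse 4 had the lowest RNA integrity number, 8.9, and mouse 5 had 9.6. Their mean over 3 monocyte markers was 0.29 and 0.09, against -0.19 to -0.01 in the rest of the group. Mouse 4 was the highest of its group on 6 of the 8 marker lists of other cell types, with means of 0.29 for monocytes, 0.24 for neutrophils, 0.35 for B cells, 0.39 for alveolar type 2 cells, 0.30 for airway epithelium and 0.16 for fibroblasts. It was at 0.33 for endothelium, where mouse 3 was at 0.36, and at 0.12 for T cells. Mouse 5 was the highest for T cells, at 0.25, and lay between -0.14 and 0.09 on the other 7 lists. Over the 9 alveolar macrophage markers mouse 4 was the lowest of its group, at -0.12, and mouse 5 was at 0.09. Most of the mouse 4 value came from Marco, at -0.95, and its other markers lay between -0.13 and 0.20. The part of these markers in the clock gene values was not tested.

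Exons of 4 clock genes overlap another gene on the opposite strand in the GENCODE annotation. They are Nr1d1 with Thra, Dbp with Sphk2, Cry2 with D930015M05Rik and Arntl with Gm45355. The library kit keeps the strand, but the strand setting of the counting is not given in the sources used here, so a share of reads from the neighbour was not tested. On GRCm38, Cry2 spans chr2:92403646-92434043, Nr1d1 chr11:98767932-98775333, Nr1d2 chr14:18204054-18239127 and Per3 chr4:151003652-151044665, all on the minus strand.

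A list of 24 further genes of clock function, covering paralogs, the ROR and PAR-domain factors, kinases and ubiquitin ligases of the clock proteins, and clock-controlled outputs, was examined beside the 10. Of these, 23 could be tested, and Rorb could not. In this list 3 rose after ozone, against 2.41% of all genes, and 2 fell, against 1.84%. The median difference was -0.03, and 8 of 23 had an unadjusted p under 0.05, against 16.7% of all genes.

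Timeless, whose product works mainly at the replication fork in mammals, rose by 0.36 ± 0.08 (SE, adjusted p = 0.0225), from a filtered-air range of -0.20 to 0.21 to an ozone range of 0.10 to 0.57. Wee1, a clock-controlled kinase that delays entry into mitosis, rose by 0.30 ± 0.07 (SE, adjusted p = 0.0184), with filtered-air mice at -0.21 to 0.24 and ozone mice at 0.13 to 0.39. Usp2, a deubiquitinase of clock proteins, rose by 0.17 ± 0.04 (SE, adjusted p = 0.0477), and its ozone mice at 0.09 to 0.31 all lay above its filtered-air mice at -0.07 to 0.08. It was the 1 gene of 23 whose groups did not overlap, a share near the 3.53% of all genes. The Usp2 call was lost under quantile normalization (adjusted p = 0.149), a variance trend (0.0586), RNA integrity as a covariate (0.0647), a replicate block (0.101), each batch alone (0.544 and 0.331) and in 11 of 12 fits with 1 mouse left out (up to 0.0992).

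Klf10, a clock-controlled zinc finger factor, fell by 0.34 ± 0.09 (SE, adjusted p = 0.0392), with filtered-air mice at -0.33 to 0.13 and ozone mice at -0.57 to -0.14. Noct, a rhythmic phosphatase also called nocturnin, fell by 0.20 ± 0.05 (SE, adjusted p = 0.0318), with filtered-air mice at -0.12 to 0.12 and ozone mice at -0.29 to -0.08. In both genes the groups overlapped. Leaving out 1 mouse at a time, the call held in 9 of 12 fits for Timeless, 10 for Wee1, 4 for Noct, 3 for Klf10 and 1 for Usp2, and no direction changed. All 5 calls were lost under quantile normalization, with adjusted p of 0.126 for Timeless, 0.139 for Wee1, 0.182 for Klf10 and 0.198 for Noct. Klf10 was also lost without the filter on low values (0.0604) and under a variance trend (0.0621), as was Noct under the trend (0.0531).

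The other genes of the list did not pass. Bhlhe41 (DEC2), a repressor that competes for E-boxes, had a difference of 0.22 (adjusted p = 0.0877), which passed with RNA integrity as a covariate and without filtered-air mouse 6. Its relative Bhlhe40 had -0.12 (adjusted p = 0.358). The PAR-domain factors Tef and Hlf, relatives of Dbp, had differences of -0.12 (adjusted p = 0.746) and -0.11 (adjusted p = 0.477). Nfil3, the repressor that binds the same D-boxes, had 0.02 (adjusted p = 0.938). The activator paralogs Npas2 and Arntl2 had -0.03 each, with adjusted p-values of 0.872 and 0.881.

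**Figure D2:**
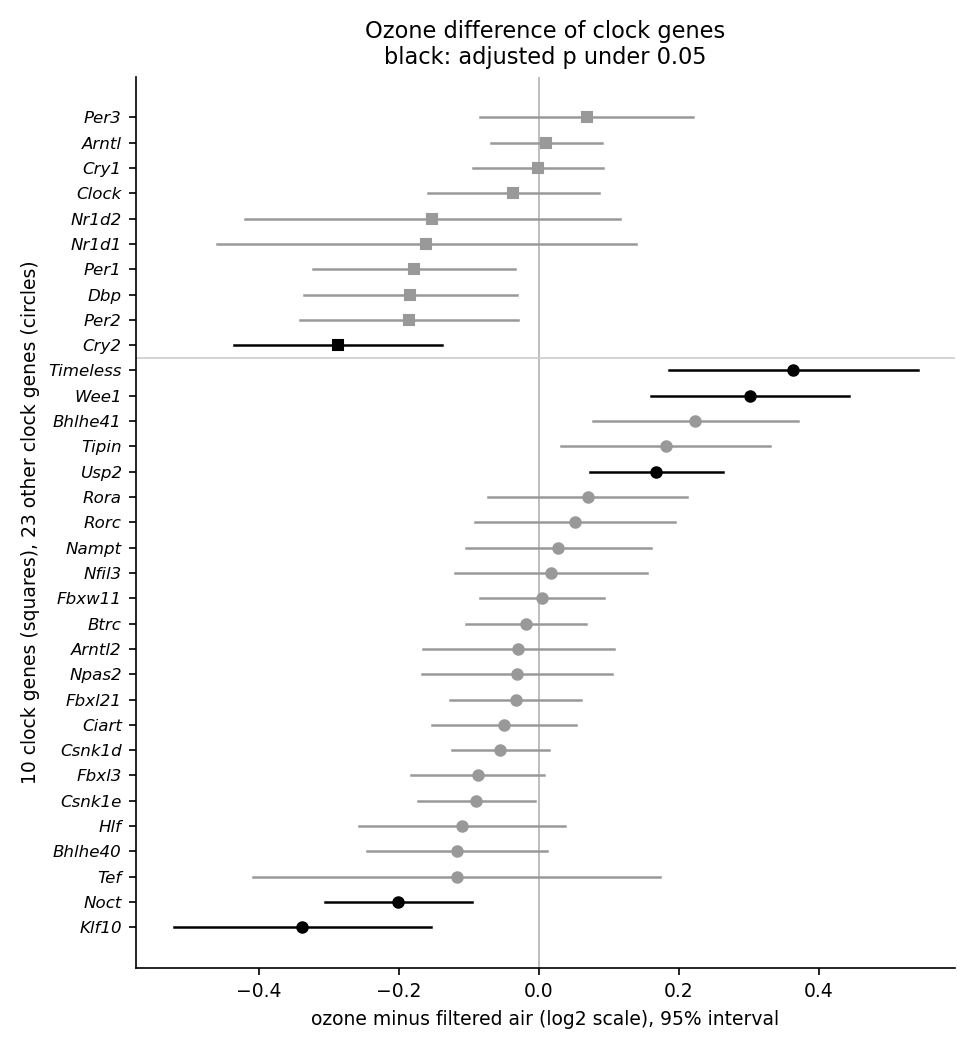
Difference between ozone and filtered air (horizontal axis, log2 scale) with its 95% interval for the 10 clock genes (squares) and 23 other clock genes (circles). Black marks an adjusted p under 0.05 by limma. Cry2 is the black square at -0.29, and among the circles Timeless, Wee1 and Usp2 lie to the right and Noct and Klf10 to the left.

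Per1 also responds directly to glucocorticoids and to cyclic AMP signalling, so lists for those inputs were examined. Of 8 glucocorticoid-responsive genes, Dusp1, a MAP kinase phosphatase, rose by 0.66 (adjusted p = 0.0206) and Klf9, a zinc finger factor, fell by 0.41 (adjusted p = 0.0258). The other 6 did not pass. Sgk1 had 0.22 (adjusted p = 0.0805), Mt2 0.25 (adjusted p = 0.144) and Mt1 0.16 (adjusted p = 0.212), while Zbtb16, Fkbp5 and Tsc22d3 had -0.14, -0.13 and -0.09 (adjusted p = 0.397, 0.581 and 0.858). Of 8 immediate early genes, Fos rose by 0.57 (adjusted p = 0.0136) and Atf3 by 0.37 (adjusted p = 0.00525), while Ier2 fell by 0.25 (adjusted p = 0.0261). Over all genes tested, 2.41% rose and 1.84% fell. At an unadjusted p under 0.05 there were 5 of 8 and 6 of 8, against 16.7% of all genes. The medians of the lists were 0.04 and 0.18, and each held genes that rose and genes that fell.

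Covariation over mice was measured after subtracting from each value the mean of its group and flow-sort batch, so that neither the ozone difference nor the batch enters. This leaves 12 mice in 4 sets of 3. Each of the 45 pairs of clock genes was tested two-sided by an exact permutation of the mice within those sets, which has 1296 orders, and the p-values were adjusted over the 45 pairs by the Benjamini-Hochberg method. Of the 45 pairs, 1 passed at an adjusted p under 0.05 and 12 had an unadjusted p under 0.05.

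The pair that passed was Per3 and Nr1d2, with r = 0.949 and Spearman rho = 0.986 (n = 12, exact permutation p = 0.000772 for each, the smallest these orders can give, adjusted p = 0.0347). The r of the same deviations was 0.966 in the 6 filtered-air mice and 0.922 in the 6 ozone mice. By flow-sort batch it was 0.942 in batch 1 and 0.963 in batch 2. Without the 2 mice farthest from the median it was 0.946, and on the values before any mean was removed it was 0.738. The mice high in one gene were high in the other within each group and each batch.

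With single mice left out, the r of Per3 and Nr1d2 stayed between 0.934 and 0.972. The adjusted p was under 0.05 in 3 of those 12 tests, and its highest value was 0.104. With 1 mouse fewer there are 432 orders, and a pair at their smallest p has an adjusted p of 0.104 unless other pairs reach that p too. Without filtered-air mice 4 and 5 the r was 0.926. Among all 19632 other genes, Per3 ranked as number 1 by its r with Nr1d2, and Nr1d2 as number 2 by its r with Per3.

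Nr1d1, Cry2 and Dbp lay near this pair without passing the test. Nr1d2 and Dbp had r = 0.907 and rho = 0.881 (n = 12, exact permutation p = 0.00309 and 0.00386, adjusted p = 0.0694 and 0.0434). Nr1d1 and Nr1d2 had r = 0.846 and rho = 0.902 (n = 12, exact permutation p = 0.00463 and 0.00231, adjusted p = 0.0694 and 0.0434). Per3 and Nr1d1 had r = 0.84 and rho = 0.895 (n = 12, exact permutation p = 0.00617 and 0.00386, adjusted p = 0.0694 and 0.0434). These pairs passed on rank values and not on the values themselves.

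Per3 and Cry2 had r = 0.861 and rho = 0.804 (n = 12, exact permutation p = 0.00849 and 0.0123, adjusted p = 0.0764 and 0.0926), and Per3 and Dbp had r = 0.827 and rho = 0.811 (n = 12, exact permutation p = 0.0162 and 0.0116, adjusted p = 0.122 and 0.0926). The 10 pairs among Per3, Cry2, Nr1d1, Nr1d2 and Dbp, a set picked after the values were seen, all had a positive r of 0.758 or more. Several of these rested on filtered-air mice 4 and 5. Without them the r of Cry2 with Nr1d1 was 0.157, of Cry2 with Nr1d2 0.467 and of Per3 with Nr1d1 0.534, while Nr1d2 with Dbp had 0.848. In filtered-air mice alone the r of Nr1d1 with Nr1d2 was 0.985 and that of Nr1d1 with Cry2 was 0.967. In ozone mice alone they were 0.587 and -0.138. Whether these correlations differ between the groups was not tested. Over all 12 mice, r was 0.846 for Nr1d1 with Nr1d2 and 0.865 for Nr1d1 with Cry2. Without the 2 mice farthest from the median it was 0.725 and 0.595, with the means of all 12 mice kept. Those mice were again filtered-air mice 4 and 5, so these values are no separate check. With the means taken again, Cry2 with Nr1d1 had the 0.157 given above.

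**Figure D3:**
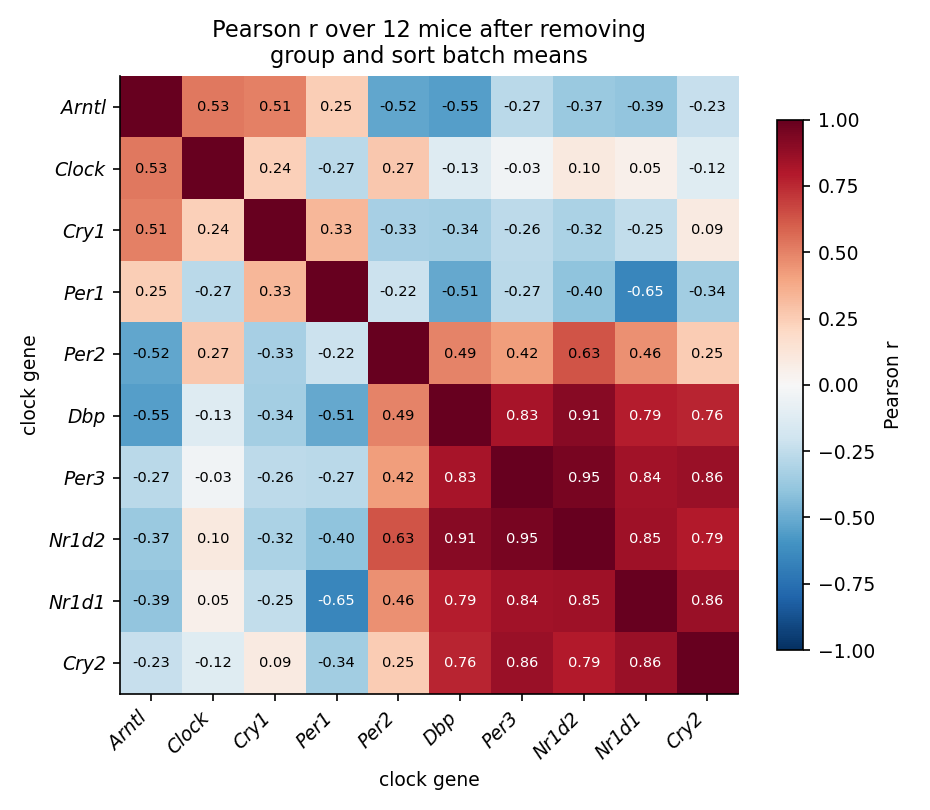
Pearson r of each pair of the 10 clock genes over 12 mice after the mean of each group and flow-sort batch was removed (colour scale from -1 to 1). Per3, Nr1d2, Nr1d1, Cry2 and Dbp form a block of positive values, with 0.95 for Per3 and Nr1d2. Per1 and Cry1 lie outside it.

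Per1 and Cry1 did not follow the other targets. Per1 and Nr1d1 had r = -0.654 and rho = -0.587 (n = 12, exact permutation p = 0.0255 and 0.0448, adjusted p = 0.127 and 0.201), with -0.67 in each flow-sort batch, and -0.567 without the 2 mice farthest from the median. That was the lowest r of the 45 pairs. Per2 and Nr1d2 had r = 0.626 and rho = 0.573 (n = 12, exact permutation p = 0.0247 and 0.0424, adjusted p = 0.127 and 0.201). Of the 28 pairs among the 8 targets, 17 had a positive r, with a median of 0.373, and 11 had an unadjusted p under 0.05.

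No activator was correlated with a target beyond the threshold. Of the 16 pairs of an activator with a target, 6 had a positive r, the median was -0.125, and none passed the test, with 1 at an unadjusted p under 0.05. That pair was Arntl and Per2, with r = -0.522 and rho = -0.455 (n = 12, exact permutation p = 0.0309 and 0.105, adjusted p = 0.139 and 0.295). Arntl with Dbp had the lowest r of these pairs, -0.552. The pairs of Clock depended on filtered-air mouse 3. With Nr1d2, Dbp, Nr1d1 and Per3, Clock had r of 0.101, -0.132, 0.052 and -0.033 over all mice. Without mouse 3 these were 0.917, 0.875, 0.845 and 0.800, and with the other targets the r of Clock ran from -0.653 to 0.622. None of these pairs of Clock had an adjusted p under 0.05 by the permutation test. Arntl and Clock had r = 0.527 and rho = 0.329 (n = 12, exact permutation p = 0.325 and 0.434, adjusted p = 0.622 and 0.647), and the r turned to -0.282 without the 2 mice farthest from the median.

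Each arm was also summarised as the mean of its genes in SD units, Arntl and Clock for the activators and the other 8 for the targets. Over the 12 mice the arms had r = -0.178 and rho = -0.021, given as a description. The value rested on few mice. Filtered-air mouse 1 stood highest in the activator arm, at 1.78 with 0.17 in the target arm, and filtered-air mouse 3 stood lowest, at -2.09 with 0.78. Without mouse 3, with the group and batch means taken again, the r turned to 0.540. The 2 mice farthest from the activator median were mice 1 and 3. With them dropped but the means of all 12 mice kept, the r was 0.114. It was -0.322 in filtered-air mice and 0.389 in ozone mice. The sign of the relation between the arms therefore changed with the mice included.

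**Figure D4:**
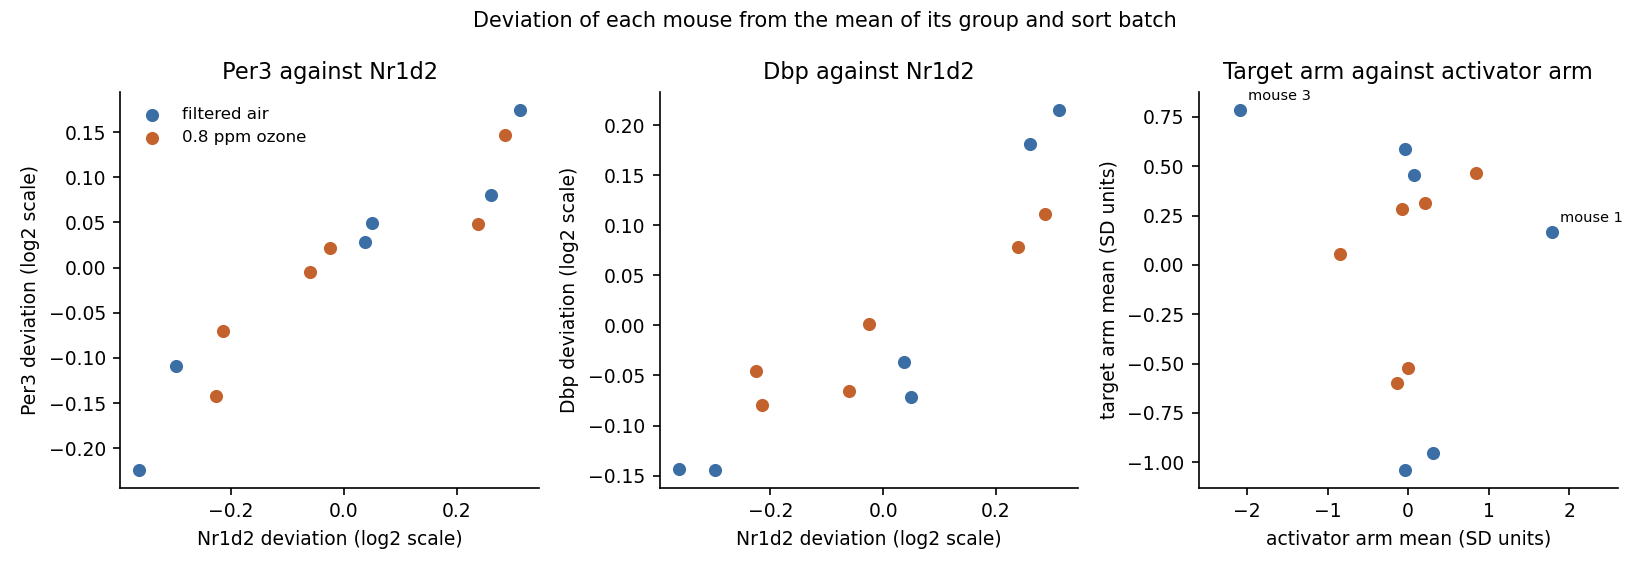
Deviation of each of 12 mice from the mean of its group and flow-sort batch, for Per3 against Nr1d2 and Dbp against Nr1d2 (log2 scale), and for the mean of the target arm against the mean of the activator arm (SD units). Blue is filtered air and orange is ozone. The points rise along a line in the left and middle plots (r = 0.949 and 0.907). In the right plot filtered-air mice 1 and 3 stand far out on the activator axis. The points of the other mice, with the means of all 12 mice kept, have r = 0.114.

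Outside the 10 genes, Tef followed Nr1d2 most closely among the 23 other clock genes, with r = 0.915 over the 12 mice. It ranked as number 6 of 19632 genes, and Dbp as number 8. Tef had a spread like that of the REV-ERB genes, from -0.49 to 0.38 in filtered air and from -0.41 to 0.28 in ozone. Csnk1d, a kinase of the PER proteins, came next of the 23, with r = 0.751 with Nr1d2. Hlf, the third PAR-domain factor, had 0.523 and Ciart, a repressor of the loop, had 0.493. The other genes among the 10 most like Nr1d2 were Hhex, Pex26, 4933417C20Rik, Cish, Rps15-ps3, Atxn7l3b and C2cd2, with r from 0.901 to 0.937. These were ranked after the values were seen and have no test.

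Genes whose pattern was most like the difference of the arms, target minus activator, were ranked over the same 12 mice. The highest were Dlg3 (r = 0.948), Gm37488 (0.932), Dlgap3 (0.909), Gm47862 (0.905) and Tgfb3 (0.902). The lowest were Siglecf (r = -0.933), the alveolar macrophage surface lectin, H2bu2 (-0.930), Gm30881 (-0.908), Cyfip1 (-0.904) and Dag1 (-0.904). None of these 10 differed between ozone and filtered air at an adjusted p under 0.05. Among the clock genes themselves, Dbp had r = 0.73 and Arntl -0.844 with this difference, of which they are part. The value is a description, and filtered-air mouse 3, at 2.88 on this difference, and filtered-air mouse 1, at -1.62, carry much of it.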

How the data were processed

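PolyA RNA of sorted alveolar macrophages from 12 mice was sequenced with a strand-keeping kit, per the labels' protocols. The submitters' processing notes name cutadapt, STAR 2.7.7a, Salmon 1.5.2, DESeq2 1.26.0, R 3.6.0, limma 3.42.2 and the build mm10, with no role or setting. The deposited table holds values on a log2 scale after variance stabilisation and batch correction by the authors, as the name of the deposited table says, and the filtered-air mean of every gene is 0. Read counts per mouse were not used here, so depth was read from the step of 1 read above the lowest value of each mouse.

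From these values, 25444 genes that vary were reduced to 19633 with at least 6 of 12 mice above the shared lowest value of their batch. limma 3.58.1 in R 4.3.3 fitted group and flow-sort batch (3 mice of each group in each of 2 batches) without a variance trend. The batch term was kept because the authors' correction had already used that degree of freedom. Tests were checked on simulated data. Covariation used exact permutation within group and batch. Named genes were the 10 clock genes, other clock genes with an adjusted p under 0.05, and the 5 highest and 5 lowest by likeness to the arm difference. Other genes are named from the fixed lists or as said. The genes, lists and tests were chosen with earlier results of these data known. Gene positions are from GENCODE M21 and upstream sequences from RefSeq. Alternatives were another filter, quantile normalization, other variance priors, no batch term, RNA integrity as a covariate, single batches, a replicate block and each mouse left out. Mice are separate animals, so p-values measure the spread between mice.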

Additional observations from a re-analysis of the deposited data

Results flagged for a closer look

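Per2 in ozone mouse 4 was at 0.127, far above the other 5 ozone mice, with a gap to the nearest of them of 0.781 of the range of the group. Klf10 in filtered-air mouse 4 was at -0.335, far below the rest of its group, with a gap of 0.738 of the range. Both ratios exceed the 95% critical value of Dixon for 6 mice. In all, 30 combinations of gene and group were examined and 2 exceeded it, where chance gives about 1.5.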

How the results depend on the processing

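The number of genes passing was 834. It was 178 after quantile normalization, 90 in flow-sort batch 1 alone, 0 in batch 2 alone, and 538 to 751 with each mouse left out. The 1 clock gene passing became 0 under quantile normalization, a variance trend and each batch alone, 0 to 1 with each mouse left out, and 2 (Cry2 and Nr1d1) without filtered-air mice 4 and 5, a count that supports nothing, since those mice were picked for their low values. The 5 other clock genes became 0, 2, 1 and 0 in that order (quantile, trend, batch 1, batch 2), 0 to 4 with each mouse left out, and 1 without those 2 mice. For the 15 named clock genes, 259 of 345 alternative values kept sign and side of the threshold, 70 lost the call, 2 gained it and 14 changed sign. Sign changes were Cry1 under quantile normalization (0.000786) and in batch 1 (0.0353), Arntl in batch 1 (-0.00264), and Per3 in batch 2 (-0.0308) and without filtered-air mice 4 and 5 (-0.0149). With each mouse left out, Cry1 ran from -0.0303 to 0.0174, Arntl from -0.00652 to 0.0291 and Clock from -0.0822 to 0.00264. The cause was not tested. Single batches hold fewer mice.

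The 1 pair passing became 7 without centring, 4 with Spearman rho, 4 in filtered-air mice alone and 0 in ozone mice alone (both with the batch mean left in and 720 orders, since the 36 orders within batches allow no p below 0.0278), 5 after quantile normalization, 0 to 3 with each mouse left out, and 0 without filtered-air mice 4 and 5, where 144 orders allow no p below 0.00694. Without centring, r was 0.738 for Per3 with Nr1d2, 0.332 for Per3 with Cry2 and 0.496 for Per3 with Dbp. The r of the arms was -0.021 as rho, -0.300 in filtered-air mice and 0.357 in ozone mice with the batch mean left in, -0.288 with Cry1 as an activator, 0.114 without the 2 farthest mice, and -0.355 to 0.540 with each mouse left out.

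Same-numbered mice are different animals, and their deviations correlated from -0.00263 to 0.284, over 0.1 in 4 of 6 numbers. With the replicate block, 853 genes, 1 clock gene and 4 other clock genes passed, and Usp2 was lost (adjusted p = 0.101). The interaction with batch was not run for single batches or the block.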
